A study of Mus musculus with 6 samples.

Results

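The genes described here are those of the urea cycle and of ammonia supply in mouse liver. They were listed by gene name and by no cut on a measured value, though with earlier results of these data known. They are the cycle enzymes Cps1, Otc, Ass1, Asl and Arg1 and the enzyme Nags that makes the activator of CPS1. The others are the mitochondrial carriers Slc25a13 and Slc25a15 and the ammonia-releasing enzymes Gls2 and Glud1. All 10 were among the 56691 genes of the table, and all 10 were among the 10756 genes that had a mean of at least 1 FPKM (counts per kilobase of exon, divided by the library total in units of 1e6) and were tested. Liver poly(A) RNA came from pregnant wild-type (WT) C57BL/6J females, all killed on Day 17 of pregnancy. The PF group (n = 3 libraries) was given a high-fructose diet (HFrD) from Day 8, and the PC group (n = 3) stayed on normal chow. No engineered allele was present in either group, the age of the dams is not in the labels, and the labels do not say that each library was a single animal, so p-values measure the spread between these 6 libraries.

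The urea cycle turns ammonia into urea, and the liver is the organ in which the whole pathway runs. CPS1 and OTC work inside hepatocyte mitochondria, where carbamoyl phosphate is made and joined to ornithine as citrulline. ASS1, ASL and ARG1 work in the cytosol, where aspartate brings in the other nitrogen and arginine is split into urea and ornithine. In liver lobules the pathway is known to be densest around the portal veins, together with GLS2, whereas glutamine synthetase (GLUL) takes up leftover ammonia beside the central veins.

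The libraries held 16119145 to 19676361 counts. The share of counts from the mitochondrial chromosome was 10.0% to 15.3% in PF and 5.03% to 9.69% in PC, and albumin (Alb) alone took 7.56% to 15.8% in PF and 18.1% to 19.9% in PC. Because these few transcripts take so much of a library, levels are given as CPM (counts per 1e6 of a library total scaled by its TMM factor). On the library totals without that factor, the median log2 fold change of all tested genes moved from 0.02 to 0.39, and that of the urea cycle and ammonia genes from -0.02 to 0.37. A direction given below for Arg1, Nags, Slc25a13, Slc25a15 or Glud1 is therefore relative to the middle of the transcriptome, since each turned to higher in PF on library totals.

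Cps1, Ass1, Arg1 and Glud1 were among the most abundant transcripts of the liver, above at least 96.6% of tested genes in every library. To compare genes, levels per length were used (TMM-scaled FPKM). In PC the order ran from Arg1 (484 ± 22.5 FPKM, SD, n = 3) through Ass1 (349 ± 63.3), Cps1 (226 ± 109), Glud1 (200.4 ± 38.1), Otc (96.3 ± 9.48), Asl (46.8 ± 1.49), Slc25a15 (43.1 ± 16.8), Slc25a13 (35.1 ± 0.823) and Gls2 (31.9 ± 3.01) to Nags (11.6 ± 1.5). The wide range of Cps1 (104 to 316 FPKM) overlapped with those of Ass1, Glud1 and Otc, and Asl, Slc25a15, Slc25a13 and Gls2 each overlapped with the next, whereas Arg1 lay above Ass1, Glud1 above Otc, Otc above Asl, and Nags below all others without overlap. In PF Ass1 came first (503 ± 195 FPKM) with a range of 278 to 626 that enclosed the whole range of Arg1 (425 to 516), and Gls2 came next after Asl (61.7 ± 24.6), its range overlapping with those of Asl and of both carriers. In both diets Cps1, Glud1, Otc and Asl followed each other in this order after Arg1 and Ass1, and Nags was last.

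The diets differed in no common direction over these genes. The mean was higher in PF for Cps1, Otc, Ass1, Asl and Gls2 and lower for Arg1, Nags, both carriers and Glud1, and the median log2 fold change of the 10 genes was -0.02 beside 0.02 for all tested genes. No member passed an adjusted p of 0.05 in edgeR's quasi-likelihood test, which called 0 of the 10756 genes (0%). At an unadjusted edgeR p under 0.05 stood Asl and Gls2, both higher in PF, where 9.13% of all tested genes were higher and 7.9% lower. DESeq2 called 495 genes (4.7%, with 2.02% higher in PF), among them Asl as the single member. Only Asl had all PF libraries on one side of all PC libraries, as 22.9% of all genes did in either direction.

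**Figure D1:**
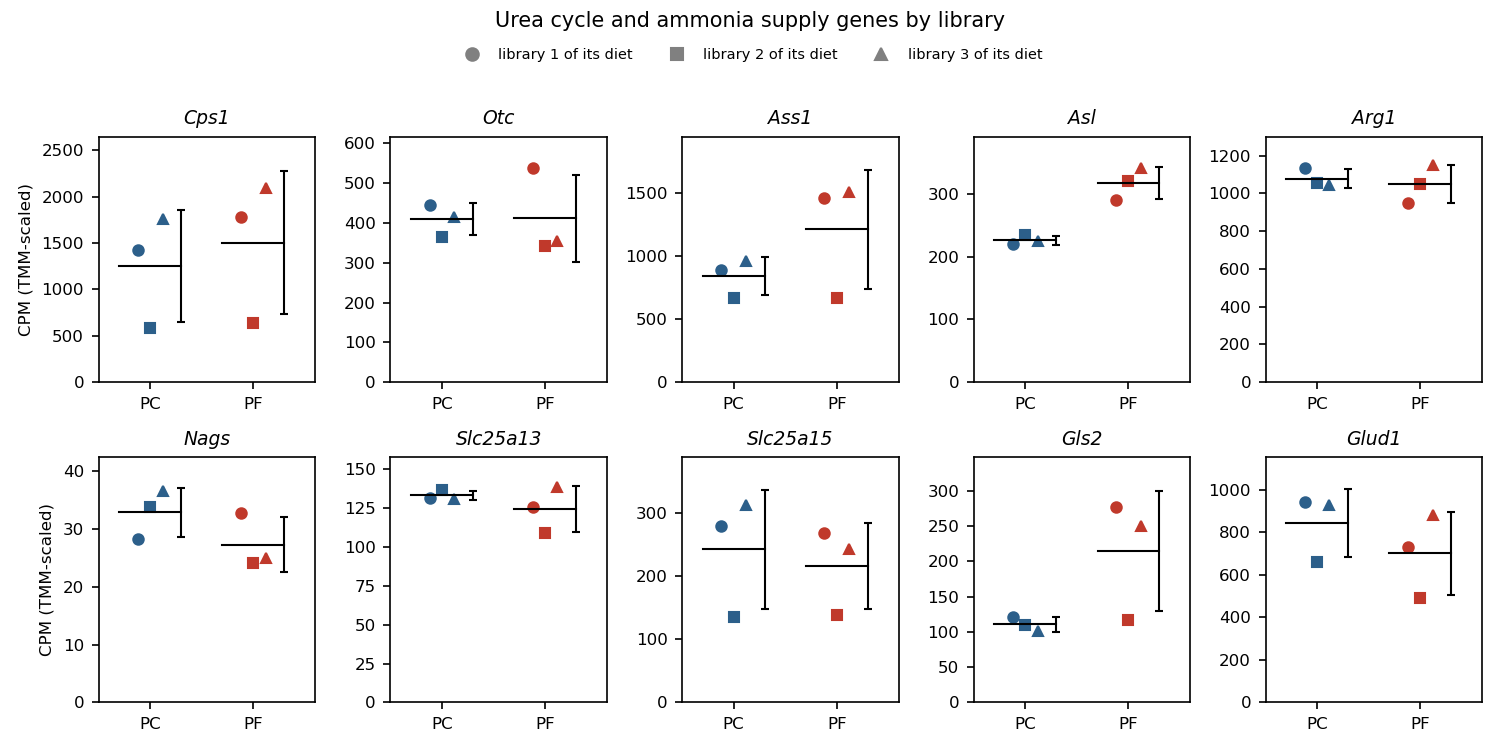
Level of each gene in CPM (TMM-scaled, linear axis from 0) in the PC (blue) and PF (red) libraries, with the mean as a line and ± 1 SD as a bar. Asl separates the diets at 291 to 341 against 219.7 to 234 CPM, Gls2 is high in PF1 and PF3 but not PF2, and the squares (PF2 and PC2) are the lowest of both diets for Cps1, Otc, Ass1, Slc25a15 and Glud1.

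Cps1 encodes carbamoyl phosphate synthetase, which fixes ammonia and bicarbonate and is the entry to the cycle (ENSMUSG00000025991, chr1:67162185-67270418, plus strand, GRCm39). It had 1782, 633 and 2098 CPM in PF1, PF2 and PF3 and 1425, 580.1 and 1758 CPM in PC1, PC2 and PC3. The second library of each diet was the low one, and the diets overlapped almost completely. The means were 1504 ± 771 against 1254 ± 607 CPM (SD, n = 3), a log2 fold change of 0.26 ± 0.54 (SE; edgeR adjusted p = 0.841). Leaving out PF3 or PC2 turned it to -0.06 or -0.08. The pooled within-diet SD of Cps1 was 0.89 on the log2 scale, higher than in 97.6% of tested genes.

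Otc encodes ornithine transcarbamylase, which makes citrulline, and lies on the X chromosome (10118544 to 10187263, plus strand). Its levels were 538, 342 and 355 CPM in PF and 445, 366 and 415 CPM in PC. PF1 was the highest library, and PF2 and PF3 were below all PC libraries. The means of 412 and 409 CPM were alike within the spread, with a log2 fold change of 0.01 ± 0.23 (SE; edgeR adjusted p = 0.989), and the sign of so small a value changed in 7 of 17 other settings.

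Ass1 encodes argininosuccinate synthetase, which joins citrulline to aspartate (chromosome 2, 31360219 to 31410684, plus strand). It stood at 1462, 670.2 and 1511 CPM in PF and 889.7, 671 and 965 CPM in PC. PF1 and PF3 were above every PC library, while PF2 was level with PC2. The mean was 1.44-fold higher in PF (1214 ± 472 against 842 ± 153 CPM), a log2 fold change of 0.53 ± 0.35 (SE; edgeR adjusted p = 0.478). It was higher in PF in all 17 other settings, at log2 values from 0.34 to 0.95, and its adjusted p stayed between 0.125 and 0.717.

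Asl encodes argininosuccinate lyase, which releases arginine and fumarate (chromosome 5, 130040099 to 130058088, minus strand). It had 291, 321 and 341 CPM in PF and 219.7, 234 and 225 CPM in PC. Every PF library was above every PC library, and the second libraries were not low. The mean was 1.40-fold higher in PF (317 ± 25.4 against 226 ± 7.21 CPM), a log2 fold change of 0.49 ± 0.16 (SE), with an adjusted p of 0.212 by edgeR and an adjusted p of 0.0401 by DESeq2. The within-diet SD of Asl, 0.09 on the log2 scale, was lower than in all but 5.03% of tested genes. Over the 17 other settings its log2 fold change was 0.43 to 0.86, and the adjusted p was 0.0401 to 0.572.

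Arg1 encodes arginase, the step that yields urea (chromosome 10, 24791119 to 24803382, minus strand). It had 948, 1048 and 1149.8 CPM in PF and 1136, 1057 and 1044 CPM in PC. The diets overlapped, and the whole span was narrow for so abundant a transcript. The log2 fold change was -0.04 ± 0.20 (SE; edgeR adjusted p = 0.942), with a within-diet SD of 0.11.

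Nags encodes N-acetylglutamate synthase, whose product is the obligate activator of CPS1 (chromosome 11, 102036339 to 102040303, plus strand). It was the least abundant member, at 32.8, 24.1 and 25.0 CPM in PF and 28.2, 33.7 and 36.6 CPM in PC. PF2 and PF3 were below all PC libraries and PF1 was among them. The mean was 1.20-fold higher in PC, with a log2 fold change of -0.27 ± 0.18 (SE; edgeR adjusted p = 0.476).

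The carriers differed from each other in their spread. Slc25a13, the aspartate and glutamate exchanger that supplies aspartate to the cytosol (chromosome 6, 6041218 to 6217173, minus strand), had 126, 109 and 139 CPM in PF and 132, 137 and 131 CPM in PC. It was steady, with a log2 fold change of -0.10 ± 0.15 (SE; edgeR adjusted p = 0.790) and a within-diet SD of 0.12. Slc25a15, the ornithine and citrulline exchanger (chromosome 8, 22865567 to 22888613, minus strand), had 268, 139 and 243 CPM in PF and 280.2, 135 and 312 CPM in PC. As with Cps1, PF2 and PC2 were the low libraries, and the diets overlapped. Its log2 fold change was -0.16 ± 0.37 (SE; edgeR adjusted p = 0.854), with a within-diet SD of 0.58.

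Gls2 encodes the liver form of glutaminase, which frees ammonia from glutamine in mitochondria (chromosome 10, 128030326 to 128045873, plus strand). It had 276, 117 and 250.2 CPM in PF and 121, 110.3 and 100.5 CPM in PC. PF1 and PF3 were far above the PC libraries, and PF2 lay inside the PC range. The mean was 1.94-fold higher in PF (214 ± 85.6 against 111 ± 10.4 CPM), a log2 fold change of 0.95 ± 0.31 (SE), with an adjusted p of 0.213 by edgeR and an adjusted p of 0.0674 by DESeq2. Without PF2 the log2 fold change was 1.24 and the edgeR adjusted p was 0.0143, in a fit that called 403 genes in all, so this library decides the call. As PF2 was the lowest PF library for Gls2, leaving it out raised the PF mean in advance, and this p-value carries no support. Spryd4, on the other strand, overlaps the Gls2 locus and had 11.9% as many counts, and whether counting used strand is not stated in the labels or methods. Spryd4 itself had 20.3, 15.6 and 20.8 CPM in PF and 22.9, 20.6 and 21.5 CPM in PC, without the high values that Gls2 had in PF1 and PF3.

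Glud1 encodes glutamate dehydrogenase, which frees ammonia from glutamate (chromosome 14, 34032684 to 34067222, plus strand). It had 732, 494 and 880.2 CPM in PF and 945, 659 and 927 CPM in PC. The second library was the lowest of each diet, and the diets overlapped. The mean was 1.20-fold higher in PC, with a log2 fold change of -0.27 ± 0.28 (SE; edgeR adjusted p = 0.671).

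**Figure D2:**
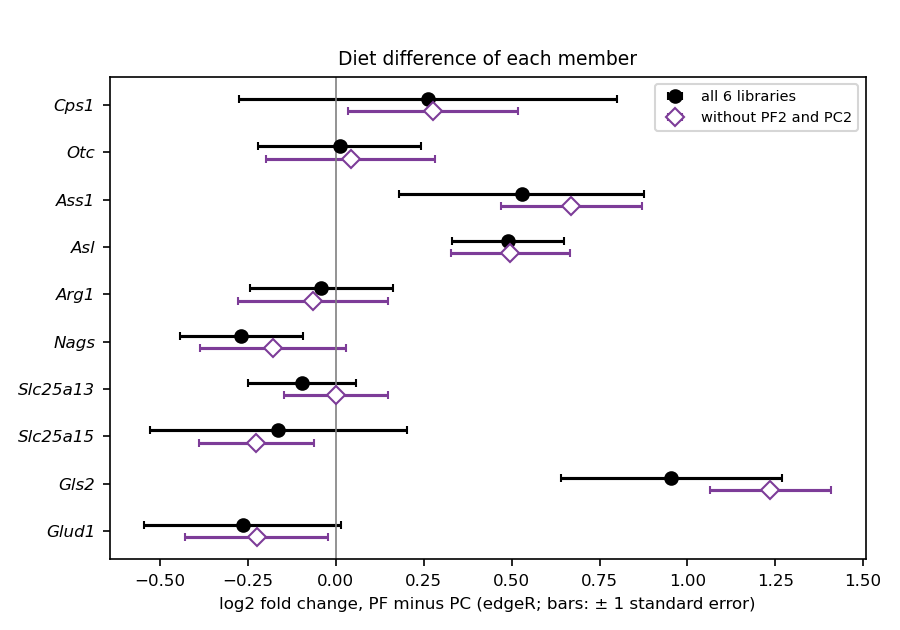
Log2 fold change (PF minus PC, edgeR) of each gene with ± 1 standard error, from all 6 libraries (black circles) and without PF2 and PC2 (open diamonds). Gls2 moves from 0.95 to 1.24 and Asl stays at 0.49 to 0.50. With all 6 libraries the bars of Cps1, Otc, Arg1, Slc25a13, Slc25a15 and Glud1 span 0.

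The widest differences among these genes were between libraries of the same diet. For 5 of the 10 members (Cps1, Otc, Ass1, Slc25a15 and Glud1), PF2 and PC2 were both the lowest library of their diet, beside 21% of all tested genes. Both were the highest of their diet for 0 of the 10, again beside 21%. This pattern was noticed after the values were seen and carries no test. For Cps1 the second library was lower than the mean of the other libraries by a log2 difference of -1.61 in PF and -1.45 in PC, for Slc25a15 by -0.87 and -1.12, for Ass1 by -1.15 and -0.47, for Glud1 by -0.70 and -0.51 and for Otc by -0.36 and -0.23. Asl and Arg1 did not share it: PF2 was the middle PF library for both. Gls2, Slc25a13 and Nags shared it only in part. PF2 was their lowest PF library (-1.16, -0.27 and -0.24), while PC2 was not their lowest PC library (-0.00, 0.06 and 0.07). Summed over the 5 cycle enzymes, the level was 5020.4, 3013 and 5456 CPM in PF1, PF2 and PF3 and 4115, 2907 and 4407 CPM in PC1, PC2 and PC3.

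**Figure D3:**
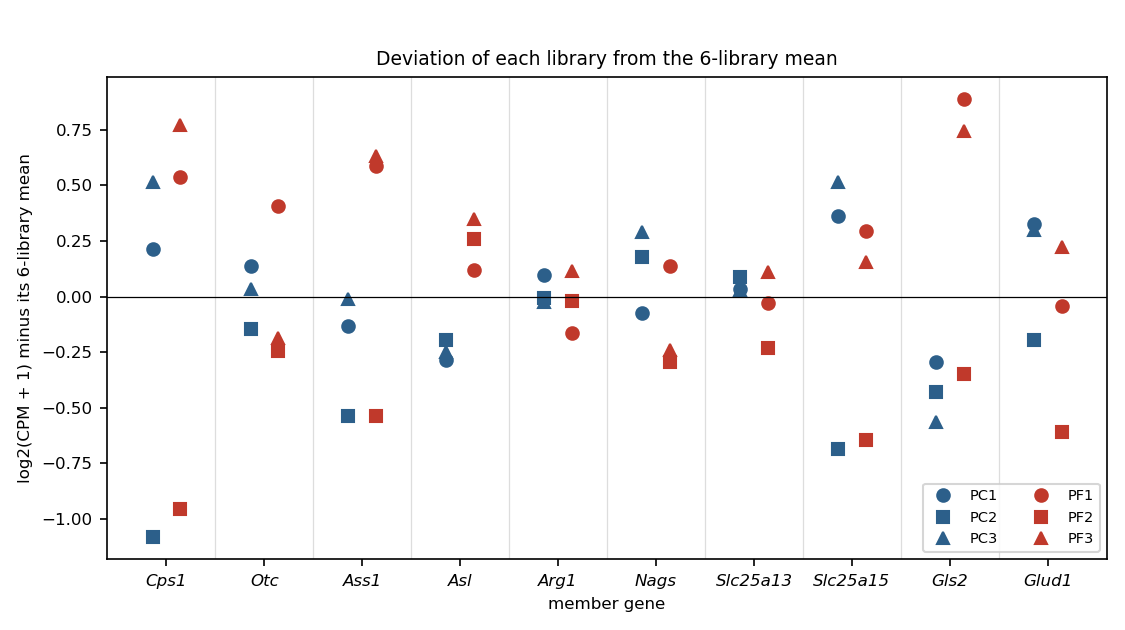
Deviation of each library from the 6-library mean of a gene, as log2(CPM + 1), with PC in blue, PF in red and the libraries 1, 2 and 3 as circle, square and triangle. The squares lie far below 0 for Cps1, Ass1 and Slc25a15, where the within-diet SDs are 0.89, 0.51 and 0.58, and near 0 for Arg1 (0.11).

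With PF2 and PC2 both left out, an alternative chosen after seeing the data, edgeR called 511 genes (4.75%), among them Gls2 as the single member (log2 fold change 1.24 ± 0.17, SE, 2.36-fold, adjusted p = 0.0276). Ass1 had a log2 fold change of 0.67 ± 0.20 (edgeR adjusted p = 0.125), and Asl stayed at 0.50 ± 0.17 (adjusted p = 0.160). PF2 was the lowest PF library for Gls2 and for Ass1. Leaving it out raised their PF means in advance, so their p-values in this fit carry no support. For Cps1, PF2 and PC2 were the low libraries, so leaving them out narrowed its spread in advance. Its standard error fell from 0.54 to 0.24, at a log2 fold change of 0.28 (edgeR adjusted p = 0.538).

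Promoter windows are shown for the genes that were lowest in both second libraries and for which the RefSeq table held a window (250 bases before to 50 after the start, GRCm38.p6), which was the case for Otc, Ass1, Slc25a15 and Glud1. Windows were held for 6 of the 10 members, and of the pair for Slc25a15 the one farther upstream is printed. Capitals mark matches to 7 motifs searched on both strands: the TATA box TATAAA, the CCAAT box, the GC box GGGCGG, the cyclic AMP response element TGACGTCA, the C/EBP motif TTGCNNAA, the E-box CACGTG and the HNF4 motif CAAAGTCCA. No 2 matches in the printed windows shared a base.
Ass1 (chr2:31470020-31470319, plus strand): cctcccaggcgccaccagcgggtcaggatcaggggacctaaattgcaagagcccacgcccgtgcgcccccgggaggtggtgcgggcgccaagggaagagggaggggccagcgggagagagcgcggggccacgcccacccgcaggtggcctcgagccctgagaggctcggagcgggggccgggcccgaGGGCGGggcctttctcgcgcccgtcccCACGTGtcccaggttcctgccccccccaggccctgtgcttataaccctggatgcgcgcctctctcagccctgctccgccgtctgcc
Slc25a15 (chr8:22398572-22398871, minus strand): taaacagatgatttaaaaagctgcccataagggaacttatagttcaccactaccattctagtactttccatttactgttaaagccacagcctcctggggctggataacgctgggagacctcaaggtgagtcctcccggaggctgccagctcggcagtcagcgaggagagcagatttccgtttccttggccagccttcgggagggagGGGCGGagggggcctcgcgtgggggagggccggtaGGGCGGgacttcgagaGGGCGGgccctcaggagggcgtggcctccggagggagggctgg
Glud1 (chr14:34310477-34310776, plus strand): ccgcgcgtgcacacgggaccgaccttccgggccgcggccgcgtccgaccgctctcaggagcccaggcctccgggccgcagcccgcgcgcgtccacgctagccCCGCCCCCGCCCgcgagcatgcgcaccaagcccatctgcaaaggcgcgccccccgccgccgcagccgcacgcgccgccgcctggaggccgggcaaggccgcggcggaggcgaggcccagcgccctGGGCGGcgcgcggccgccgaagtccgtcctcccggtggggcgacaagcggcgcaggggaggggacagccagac
Otc (chrX:10252055-10252354, plus strand): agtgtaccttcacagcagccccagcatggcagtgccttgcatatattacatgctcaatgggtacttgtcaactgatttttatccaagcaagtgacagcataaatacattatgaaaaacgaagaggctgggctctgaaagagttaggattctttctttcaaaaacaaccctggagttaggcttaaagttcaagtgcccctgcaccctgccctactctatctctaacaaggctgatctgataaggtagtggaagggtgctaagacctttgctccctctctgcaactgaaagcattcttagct
The window of Ass1 (74% G and C) held 1 GC box and 1 E-box, and those of Slc25a15 (60.7%) and Glud1 (81%) held 3 GC boxes each. The other window of Slc25a15, not printed, held 5 GC boxes and 1 E-box. The window of Otc (44.3%) held none of the 7. Over the 32851 windows of the table, 35.7% held the GC box, 37.4% CCAAT, 13.6% TATAAA, 10.8% the C/EBP motif, 7.15% the E-box, 1.79% the cyclic AMP element and 0.475% the HNF4 motif. No motif of this search was common to the 4 printed windows, and a match is a description of letters only.

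Ratios within a library do not depend on how libraries are scaled, and 5 were compared by a two-sided exact permutation test of log2 FPKM ratios, whose smallest possible p is 0.1. Cps1 to Otc, both mitochondrial steps, was 2.53, 1.41 and 4.51 in PF and 2.44, 1.21 and 3.23 in PC (log2 difference 0.25, exact p = 0.7, adjusted 0.7). The second libraries had the lowest ratio of each diet, so Cps1 was low there even beside Otc. Arg1 to Ass1, the last cytosolic step against the first, was 0.703, 1.69 and 0.825 in PF and 1.38, 1.71 and 1.17 in PC (log2 difference -0.50, exact p = 0.3, adjusted 0.5). Arg1 outweighed Ass1 in every PC library and in PF2, and Ass1 outweighed Arg1 in PF1 and PF3.

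Gls2 was set against Glul, the enzyme of the reverse reaction. Gls2 to Glul was 0.464, 0.109 and 0.249 in PF and 0.156, 0.0982 and 0.124 in PC (log2 difference 0.91, exact p = 0.3, adjusted 0.5). PF2 fell among the PC libraries in this ratio, as Gls2 itself did. Cps1 to Glul was 1.87, 0.369 and 1.31 in PF and 1.15, 0.323 and 1.35 in PC (log2 difference 0.28, exact p = 0.6, adjusted 0.7).

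**Figure D4:**
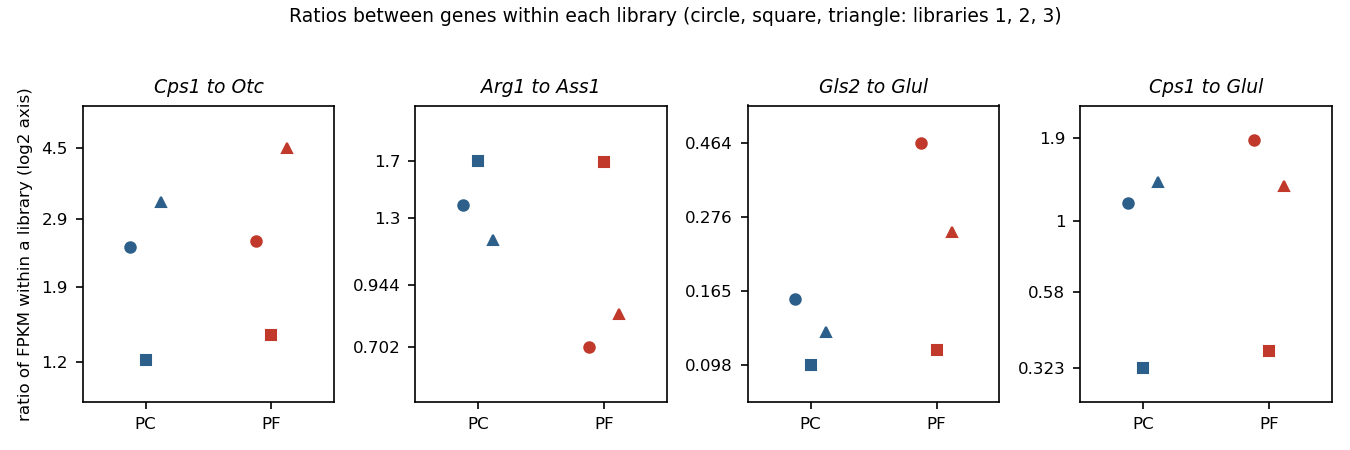
Ratio of FPKM between a pair of genes within each library (log2 axis), with PC in blue and PF in red. Gls2 to Glul is highest in PF1 (0.464) and PF3 (0.249), and Cps1 to Glul falls to 0.369 and 0.323 in PF2 and PC2.

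Genes around the cycle were read from 6 lists of 55 genes, of which 44 were tested, 25 with a higher and 19 with a lower mean in PF and a median log2 fold change of 0.02. At an unadjusted edgeR p under 0.05, 6 were higher and 2 lower, beside 9.13% and 7.9% of all tested genes, 0 passed edgeR's adjusted threshold and DESeq2 called 1, Gcsh. The second library was the lowest of both diets for 11 of the 44, beside 21% of all tested genes. Aqp8, Sds, Sdsl, Creb1 and Crtc2 were higher in PF without overlap, beside 11.8% of all tested genes. Got2, Slc25a22, Rhbg, Gcsh and Hnf4a were lower without overlap, beside 11.1%.

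Among 8 genes of aspartate regeneration and transamination, 5 had a higher mean and 3 a lower one. Got1, the cytosolic aspartate aminotransferase, had 219, 58.4 and 213 CPM in PF and 91.0, 60.8 and 99.2 CPM in PC. It shared the low PF2 and PC2 of Ass1 and was high in PF1 and PF3, with a log2 fold change of 0.97 ± 0.47 (SE; edgeR adjusted p = 0.347). Without PF2 and PC2 its log2 fold change was 1.17 and its edgeR adjusted p was 0.0223. That alternative was chosen after seeing the data and called 4.75% of all tested genes. PF2 was the lowest PF library for Got1, and for Slc38a4 and Aqp8 below. Leaving it out raised their PF means in advance, so these p-values carry no support. Among others, Slc1a5, Gcsh, Sds, Gpt2 and Creb1 were not called there (edgeR adjusted p 0.0747 to 0.135). Gpt2, an alanine aminotransferase, had a log2 fold change of 0.37 (edgeR adjusted p = 0.445), and Fh1, the fumarate hydratase that takes up the product of ASL, one of 0.25 (edgeR adjusted p = 0.467).

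In glutamine and glutamate handling 7 of 10 genes were tested, 3 with a higher mean and 4 with a lower one. Slc38a4, a neutral amino acid transporter, had 469, 164 and 769.6 CPM in PF and 208, 239 and 140.3 CPM in PC. It was high in PF1 and PF3 like Gls2, with a log2 fold change of 1.25 ± 0.51 (SE; edgeR adjusted p = 0.275), and of 1.82 without PF2 and PC2 (edgeR adjusted p = 0.0436). Slc1a5, a glutamine transporter of low level in these livers, had a log2 fold change of 1.09 ± 0.42 (SE; edgeR adjusted p = 0.259), and the glutamate transporter Slc1a2 one of -0.86 ± 0.47 (SE; edgeR adjusted p = 0.399).

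Of 7 genes for the passage of bicarbonate, ammonia and urea, 4 were tested. Aqp8, an aquaporin of hepatocyte membranes, had 327, 165 and 217 CPM in PF and 92.0, 162 and 104 CPM in PC. Its PF libraries were all above its PC libraries, PF2 by the least, as in 11.8% of all tested genes. Its log2 fold change was 0.99 ± 0.32 (SE; edgeR adjusted p = 0.209), and 1.46 without PF2 and PC2 (edgeR adjusted p = 0.0348). Rhbg, an ammonia channel, was at 2.07 to 2.79 CPM in PF and 3.47 to 4.64 CPM in PC, with a log2 fold change of -0.71 ± 0.25 (SE; edgeR adjusted p = 0.225). Car5a, the mitochondrial carbonic anhydrase that feeds bicarbonate to CPS1, had a log2 fold change of -0.15 ± 0.17 (SE; edgeR adjusted p = 0.690).

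Of 10 genes of the arginine and ornithine branches, 5 were tested, 0 at an unadjusted p under 0.05. Odc1, the ornithine decarboxylase, had a log2 fold change of -0.30 (edgeR adjusted p = 0.441), Oat, the ornithine aminotransferase, one of 0.48 (adjusted p = 0.491) and Slc7a2, a cationic amino acid transporter, one of 0.54 (adjusted p = 0.606). Of 7 genes of ammonia-releasing amino acid breakdown, all tested, 4 had a higher and 3 a lower mean. Gcsh, the hydrogen carrier of glycine cleavage, had 109, 106 and 88.3 CPM in PF and 155, 137 and 155 CPM in PC. Its diets did not overlap, as in 22.9% of all tested genes. Its log2 fold change was -0.56 ± 0.16 (SE; edgeR adjusted p = 0.185, DESeq2 adjusted p = 0.0247). Sds, the serine dehydratase, had 110.1, 76.4 and 178 CPM in PF and 75.1, 71.8 and 37.5 CPM in PC, a log2 fold change of 0.98 ± 0.37 (SE; edgeR adjusted p = 0.249). The related Sdsl was low, at 4.12 to 6.42 CPM, with a log2 fold change of 0.37 (edgeR adjusted p = 0.383).

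Among 13 known regulators, 9 had a higher and 4 a lower mean. Creb1, a mediator of glucagon signalling, had 22.2, 19.1 and 19.7 CPM in PF and 14.8, 15.0 and 15.2 CPM in PC. Its diets did not overlap, as in 22.9% of all tested genes, and its log2 fold change was 0.44 ± 0.13 (SE; edgeR adjusted p = 0.190). Ppargc1a, a fasting-induced coactivator, had a log2 fold change of 1.10 ± 0.47 (SE; edgeR adjusted p = 0.288). Hnf4a, a hepatocyte transcription factor, had 302, 382 and 337 CPM in PF and 462, 424 and 456 CPM in PC, a log2 fold change of -0.39 ± 0.18 (SE; edgeR adjusted p = 0.312).

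**Figure D5:**
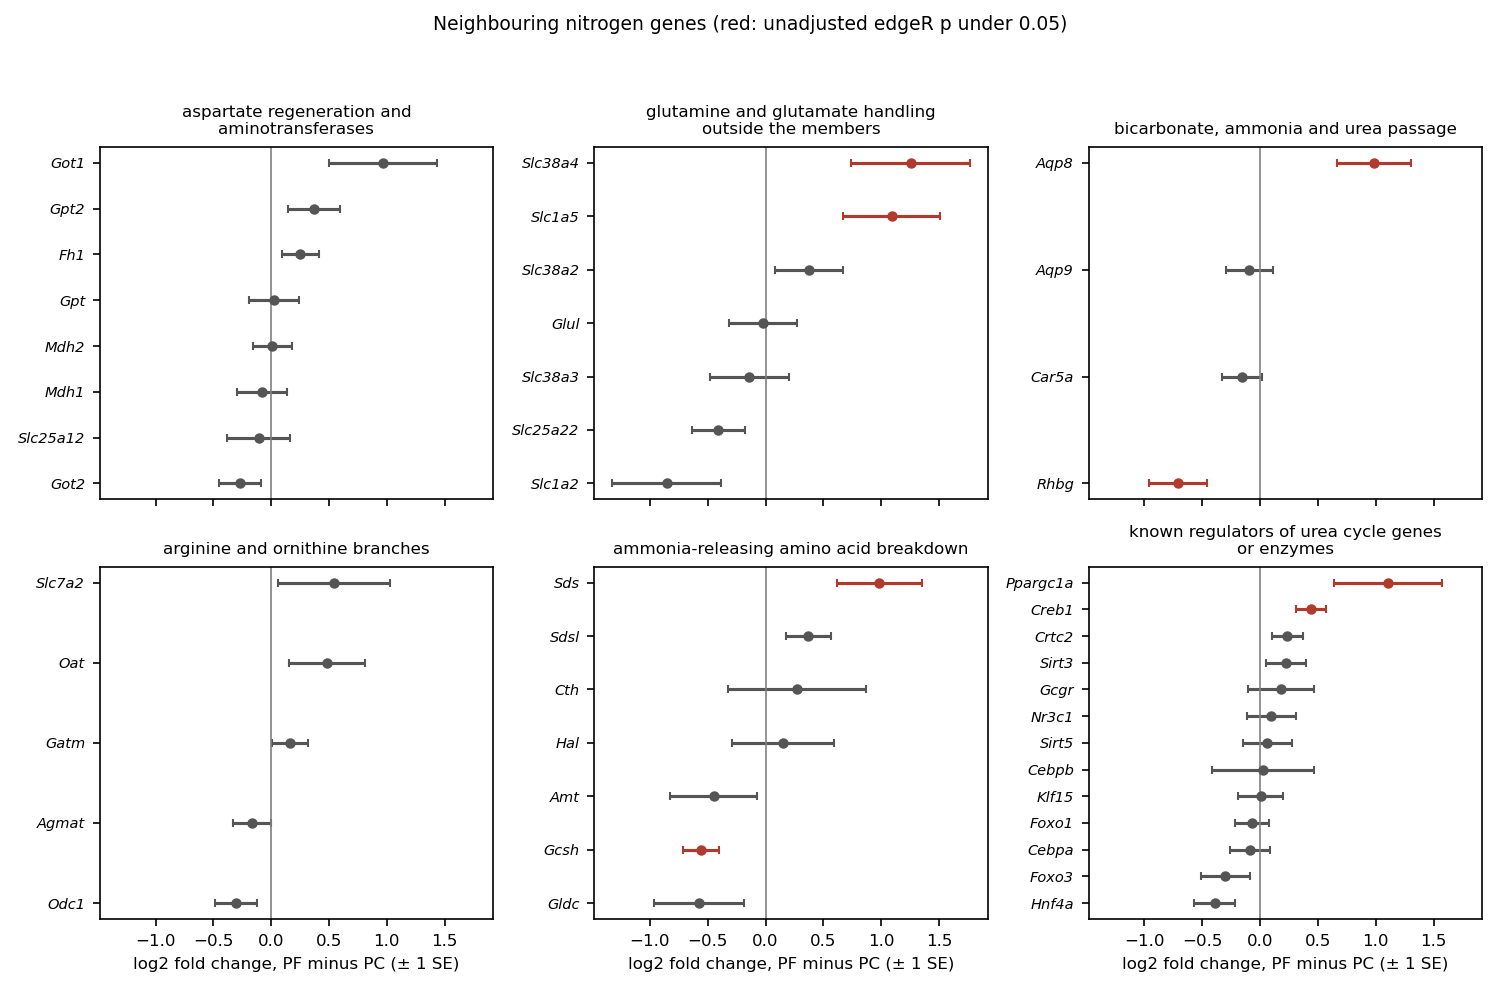
Log2 fold change (PF minus PC, edgeR) with ± 1 standard error for the 44 tested genes of 6 lists around the urea cycle; red marks an unadjusted p under 0.05. Of the 8 red genes, 6 lie to the right, among them Slc38a4 at 1.25 and Aqp8 at 0.99, and Gcsh (-0.56) and Rhbg (-0.71) to the left.

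Markers of the cells that hold these genes were measured beside them. In bulk liver, fewer cells of a type and less RNA per cell cannot be told apart. Of 6 hepatocyte markers 5 had a lower mean in PF and 1, Ttr, a higher one. DESeq2 called the 5 lower ones, beside 4.7% of all genes, and edgeR called 0. The sum of the 6 was 84022 to 194571 CPM in PF and 245532 to 294516 CPM in PC. Most of it was Alb. PF2 was nearest to PC in this sum while it was the lowest PF library for Cps1 and Ass1. The 7 periportal markers outside the cycle split into 4 higher and 3 lower means, with sums of 1360.1, 1040.1 and 1783 CPM in PF and 2039, 1072 and 2129 CPM in PC. This sum was the lowest of each diet in PF2 and PC2, as for Cps1, but singly 2 of the 7, Hal and Ctsc, were lowest in both second libraries, beside 21% of all tested genes.

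The 12 pericentral markers, 11 of them tested, split into 3 higher and 8 lower means in PF. They summed to 4083, 3962 and 6177 CPM in PF and 6406, 5835 and 4458 CPM in PC, and PC2 was not the lowest. Of the stellate cell markers, all 5 tested were lowest of their diet in PF2 and PC2, beside 21% of all tested genes. So were 3 of 6 sinusoidal endothelial and 1 of 6 Kupffer cell markers. The stellate sums were 159 and 161 CPM there and 227 to 262 CPM in the other libraries. The cholangiocyte sum was also lowest there, at 31.0 and 25.0 CPM against 45.1 to 82.0 CPM. Most of it was Spp1 (28.2 and 22.0 CPM there), the only 1 of its 5 markers that was tested. Kupffer cell markers summed to 179 to 313 CPM and sinusoidal endothelial markers to 139 to 179 CPM over all libraries, T and B cell markers to 18.7 to 61.3 CPM, neutrophil markers to 1.70 to 7.40 CPM and erythroid markers to 50.7 to 209 CPM. The part of these differences in the levels of Cps1, Ass1, Slc25a15 and Glud1 was not tested.

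The 5 named protein-coding genes whose profile over the 6 libraries was nearest to the mean profile of the cycle enzymes, among 9105 candidates, were Magi3, Mapkapk2, Itpripl2, Sptlc2 and Gtf2e1. Their mean absolute difference from that profile was 0.0504 to 0.0605 on the log2 scale. The enzymes themselves lay farther from it, from 0.18 for Otc to 0.45 for Cps1, so the mean is the profile of no single enzyme. The nearest of so many candidates over 6 libraries are close by selection, and a shared control was not tested. The enzyme profile itself lay at 0.30, -0.30 and 0.34 in PF and 0.01, -0.39 and 0.05 in PC, relative to its 6-library mean. Magi3, the nearest, had 24.2, 14.2 and 25.2 CPM in PF and 21.3, 14.7 and 21.0 CPM in PC.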

How the data were processed

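Liver poly(A) RNA was sequenced in 6 libraries, grouped by title into PF (n = 3) and PC (n = 3). Per the file headers, the table deposited by the authors holds a whole-number count for each gene and library, not normalised, and an FPKM value, which equals the count per kilobase of exon and per 1e6 counts of the library. The gene coordinates follow GRCm39. Tools listed in the submitters' processing notes are HISAT2 2.2.1, cutadapt 1.9.1, DESeq2 and HTSeq 0.6.1, with no roles given. How counting treated strand, and which annotation was used, is not given in the sources used here. Symbols were found for 52073 of 56691 genes.

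Genes averaging 1 FPKM or more (10756) were tested on counts with edgeR 4.0.16 (R 4.3.3; quasi-likelihood, two-sided, TMM factors, no covariate, Benjamini-Hochberg over all tested genes, threshold 0.05). The filter did not remove any member. Standard errors are the log2 fold change over the square root of F. DESeq2 1.42.0, limma 3.58.1 on log2(FPKM + 1), other scalings and filters, a replicate block and each library left out were alternatives. In the main edgeR fit, the library totals scaled by the TMM factors were the library sizes. No 2 libraries of a diet agreed within sampling noise, and each was taken as 1 replicate. This does not show that they came from separate animals, which the labels do not state.

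The members, lists and alternatives were chosen with earlier results of these data known. All members are named, and from each other pathway list the up to 3 tested genes of smallest p and those without overlap, and the 5 genes nearest in profile. Promoter windows are from RefSeq on GRCm38.p6, so their coordinates differ from those of the table. Protein sequences were not used here. Of the 5 ratios compared, over which the p-values were adjusted, 1 is not reported here.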

Additional observations from a re-analysis of the deposited data

How the results depend on the processing

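Of the members' own values, Asl, Ass1 and Gls2 were higher in PF in all 17 alternatives. The count of called genes, 0 in edgeR, was 495 in DESeq2, 4 in limma on log2(FPKM + 1), 180 on library totals, 555 with no filter, 1 with edgeR's own filter and 0 to 403 with each library left out (403 without PF2), and 511 without PF2 and PC2. Called members numbered 1 in DESeq2 (Asl, log2 fold change 0.48, adjusted p = 0.0401), 0 to 1 with each library left out (Gls2 without PF2, 1.24) and 1 without PF2 and PC2. Members at an unadjusted p under 0.05 numbered 1 with no filter (11.1% of all genes) and 0 to 3 with each library left out (9.16% to 19.6% of all genes), with 0 without PF3 or PC3 and 1 without PC1. Members without overlap numbered 3 on deposited FPKM, 1 to 4 with each library left out and 6 without PF2 and PC2, beside 36.9%, 27.5% to 41.8% and 56.7% of all tested genes.

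The members' median was 0.33 in limma with a pseudocount of either 1 or 0.1 and 0.37 on library totals, beside medians over all genes of 0.29, 0.36 and 0.39. In these 3 settings, in that order, Arg1 turned to 0.32, 0.32 and 0.33, Nags to 0.0842, 0.0898 and 0.1118, Slc25a13 to 0.26, 0.26 and 0.29, Slc25a15 to 0.23, 0.23 and 0.25 and Glud1 to 0.0776, 0.0777 and 0.1385. Otc turned to -0.0046 in DESeq2 and with its size factors, -0.0226 with no filter, -0.0175 with edgeR's own filter and -0.0163 under the replicate block. With each library left out, Cps1 ranged from -0.081 to 0.62, Otc from -0.23 to 0.12, Arg1 from -0.11 to 0.0264 and Slc25a15 from -0.45 to 0.0659. The log2 difference in the Cps1 to Otc ratio ranged from -0.17 to 0.67, below 0 without PF3 or PC2, and that in Cps1 to Glul from -0.37 to 0.98, below 0 without PF1 or PC2. The cause was not tested.

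The labels do not say what the replicate numbers share. Deviations from the group mean correlated at -0.17, 0.28 and 0.11 for the numbers 1, 2 and 3, and not every library correlated best with its own number, so the numbers were not taken as pairs. With the number as a replicate block, 0 genes and 0 members were called.

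With 3 libraries a diet, differences within the spread of Cps1 or Slc25a15 could not be told from none.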
